A study of Mus musculus with 24 samples.

Results

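The effect of losing Cthrc1 was examined in mouse aorta under Ang-II/BAPN, in 6 knockout libraries (genotype cthrc1-/-) and 6 wild type libraries of the 24 in the series. All 12 came from animals that had received Ang-II/BAPN, that is angiotensin II together with β-aminopropionitrile. Of the 6 libraries of a genotype, 3 carry titles that start with F (the F set) while the titles of the remaining 3 do not (the plain set). The meaning of F is not stated. F-set libraries held 191 to 1000 CPM of Xist, which silences one X chromosome in female cells, and at most 1.29 CPM of the Y-linked Ddx3y. Plain-set libraries held at most 6.48 CPM of Xist and 78.1 to 112 CPM of Ddx3y, so the set term separates female from male tissue by these transcripts. The other 12 libraries, from animals given PBS, serve below only as a reference. The labels used here give neither strain nor age, nor the design of the knockout allele. Nothing in them says that libraries came from separate animals, so p-values measure the spread between these libraries, which may be technical.

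Cthrc1 is a secreted glycoprotein with a short collagen-like repeat. It is barely made in quiet arteries and appears in adventitial fibroblasts and smooth muscle cells after injury, where it has been linked to collagen deposition and to Wnt and TGF-beta signalling. Angiotensin II raises blood pressure and acts on smooth muscle cells and fibroblasts. β-aminopropionitrile blocks lysyl oxidases, the enzymes that link elastin and collagen chains, and both agents together make mouse aorta prone to dissection. Smooth muscle cells of an injured wall are known to lose contractile proteins.

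The 12 libraries held 45186407 to 79277927 counts, and some stood apart. F-set knockout replicate 1 had the lowest median correlation with the other libraries (0.865, against 0.906 to 0.942), the highest mitochondrial share of counts (21.9%) and a TMM scaling factor of 0.782. F-set wild type replicate 1 held summed red cell markers of 49800 CPM (the count as a share of the TMM-scaled library) and summed macrophage markers of 6410 CPM. F-set knockout replicate 2 held red cell markers of 23600 CPM. Transcripts of other abdominal organs were unevenly spread. Pancreatic enzymes summed to 4750, 5860 and 615 CPM in the plain-set knockout libraries and to 9.92 to 46.2 CPM in the other 9. Intestinal markers summed to 321, 395 and 196 CPM in the plain-set wild type libraries, to 159 CPM in F-set wild type replicate 2, to 104 and 111 CPM in plain-set knockout replicates 1 and 2, and to 6.21 to 28.4 CPM elsewhere. Liver markers ran from 159 to 1860 CPM in wild type and from 48.5 to 394 CPM in knockout libraries. Kidney tubule markers reached 4780 CPM in plain-set wild type replicate 2 and 981 CPM in plain-set knockout replicate 1.

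**Figure D1:**
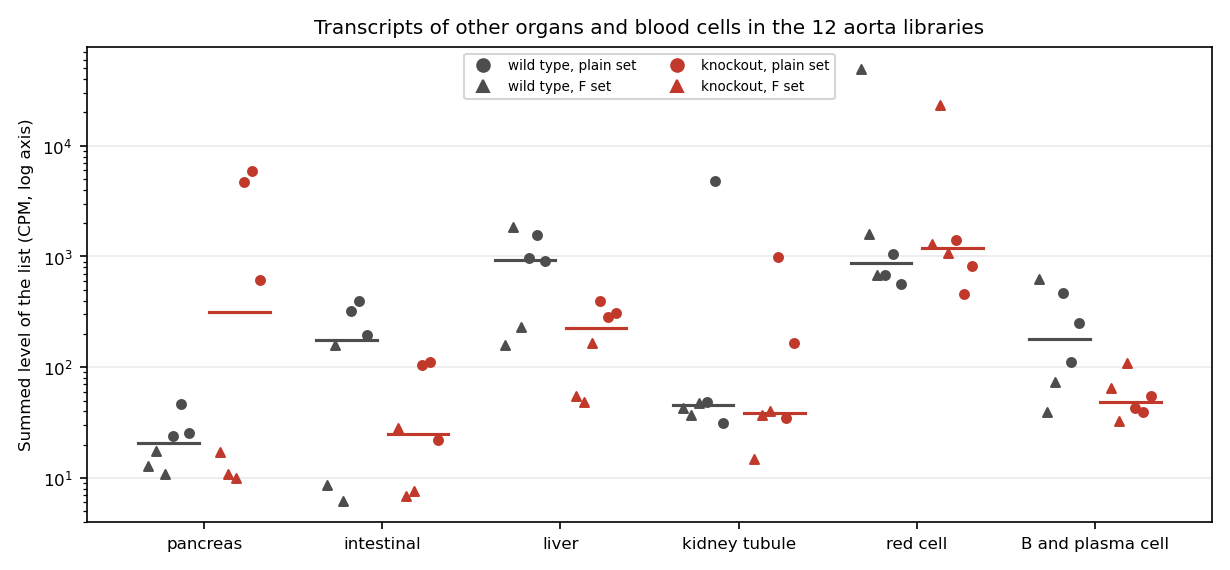
Summed CPM (log axis) of marker lists of other organs and blood cells in each of the 12 libraries; circles are the plain set, triangles the F set, grey wild type, red knockout, and bars are medians. The 3 plain-set knockout libraries lie at 615 to 5860 CPM for pancreas, against at most 46.2 CPM in the others.

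Of 22422 genes tested, 207 differed between genotypes (0.923%; edgeR quasi-likelihood test with the title set as a term, Benjamini-Hochberg adjusted p under 0.05, n = 6 libraries per genotype). Higher in knockout aorta were 132 genes (0.589%) and lower were 75 (0.334%). Over all tested genes the median log2 fold change of knockout over wild type was -0.06, and 45.7% of genes had a positive one. An unadjusted p under 0.05 was found for 21.8% of them (10.3% higher and 11.5% lower), and DESeq2 called 10.9% (5.17% higher and 5.69% lower). The counts by list below are to be read against these shares. Among the 207, 17 belong to the pancreatic, intestinal, liver and kidney lists. The remaining 190, which still include organ genes outside those short lists (Amy2b, Ins1 and Tff2 among the higher, Serpina3k, Hpx and F12 among the lower), split into 119 genes higher in knockout, with a median log2 fold change of 1.33, and 71 lower, with a median of -1.27. Libraries did not overlap between genotypes for 139 of the 207 called genes (67.1%) and for 736 of all tested genes (3.28%), and the first share follows in part from the call itself.

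The number of calls moved with single libraries, and the direction did not. Without F-set knockout replicate 1, 2 or 3 the counts were 113, 7 and 251. Without F-set wild type replicate 1, 2 or 3 they were 111, 297 and 368. Without plain-set knockout replicate 1, 2 or 3 they were 10, 9 and 15, and without plain-set wild type replicate 1, 2 or 3 they were 8, 11 and 0. In each of these 12 edgeR fits all 207 genes kept their direction and an unadjusted p under 0.05. This includes the fit with 0 calls, which had 4661 genes at an unadjusted p under 0.05. The 207 were picked for a small p in these same libraries, so that stability follows largely from the call itself. DESeq2 on the 12 libraries called 2435 genes, 1160 higher and 1275 lower, 202 of the 207 among them. With the pancreatic enzyme sum as a covariate edgeR called 0 genes, with 3340 at an unadjusted p under 0.05.

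The targeted gene was examined first. Cthrc1 (ENSMUSG00000054196) is encoded on the plus strand of chromosome 15, from 39076932 to 39087121 in GRCm38. It lay at 55.2, 75.3 and 54.7 CPM in plain-set wild type libraries and at 116, 109 and 28.2 CPM in those of the F set. The plain-set knockout libraries held 3.32, 6.12 and 1.87 CPM, and the F-set ones 2.77, 5.96 and 10.9 CPM. The genotypes did not overlap, and the knockout mean was 7.04% of the wild type mean (5.15 ± 3.28 against 73.1 ± 34.1 CPM, SD, n = 6 each). By edgeR the log2 fold change was -3.86 (SE 0.45, adjusted p = 0.00601), and it was -3.88 without plain-set wild type replicate 3, where the call was lost. Because counts are summed per gene, the exons behind the residual knockout signal are unknown.

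The 6 genes next to Cthrc1 were not called, and their libraries overlapped between genotypes. Fzd6, a Wnt receptor of planar polarity, had an edgeR log2 fold change of 0.23 (SE 0.24, adjusted p = 0.599). Slc25a32, a mitochondrial folate carrier, differed by -0.37 (SE 0.25), Dcaf13, a protein of ribosome assembly, by -0.23 (SE 0.15), and Baalc by -0.11 (SE 0.32). Rims2, a synaptic scaffold protein, and Dcstamp, a protein of osteoclast fusion, were scarce, with medians of at most 4.86 and 0.653 CPM in either genotype.

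Genes of the smooth muscle contractile apparatus were higher in sum in knockout aorta. All 17 listed genes had a positive log2 fold change, against 45.7% of all tested genes. Of them 4 were called, 15 had an unadjusted p under 0.05, and DESeq2 called 11. Libraries did not overlap between genotypes for 8 of the 17, against 3.28% of all tested genes. The list median was 1.10, against -0.06 for all genes, with 1.24 for plain-set and 1.18 for F-set libraries. The summed level of the list ran from 2780 to 8860 CPM in wild type and from 10600 to 19500 CPM in knockout libraries, without overlap. In bulk RNA, more cells of a type and more RNA per cell cannot be told apart. Without F-set knockout replicate 1 and F-set wild type replicate 1 the median was 0.98, and in the 4 F-set libraries with intestinal markers up to 10 CPM it was 1.35. Those 4 libraries include F-set wild type replicate 1, whose list sum of 2780 CPM was the lowest of all. With the intestinal, pancreatic or liver sum as a covariate the median was 1.15, 1.24 and 1.37, the last 2 covariates chosen after seeing the data.

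The called members are thin filament, myosin and actin-binding genes, and for each the lowest knockout library lay above the highest wild type library. Tpm1, the main tropomyosin of the thin filament, had a lowest, median and highest level of 296, 389 and 467 CPM in wild type and of 606, 738 and 970 CPM in knockout aorta (edgeR log2 fold change 0.94, SE 0.17, adjusted p = 0.0412). Smtn, which encodes smoothelin of contractile smooth muscle, ran from 126 over 256 to 317 CPM in wild type and from 428 over 523 to 633 CPM in knockout aorta (edgeR 1.23, SE 0.25, adjusted p = 0.0463). In each title set replicate 1 was the lowest wild type library for Smtn. Tpm2, β-tropomyosin, ran from 164 over 247 to 352 CPM and from 381 over 598 to 654 CPM (edgeR 1.10, SE 0.22, adjusted p = 0.0463). Myl9, a myosin light chain whose phosphorylation starts contraction, ran from 233 over 516 to 770 CPM and from 871 over 1424 to 2217 CPM (edgeR 1.52, SE 0.32, adjusted p = 0.0493).

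The most abundant members missed the threshold with fold changes of like size. Acta2, smooth muscle α-actin, lay at 936 to 3076 CPM in wild type and 3601 to 6958 CPM in knockout aorta, again without overlap (edgeR log2 fold change 1.37, SE 0.32, adjusted p = 0.0578). Tagln, the actin-bundling protein transgelin, lay at 329 to 1245 and 1342 to 2747 CPM (edgeR 1.35, SE 0.33, adjusted p = 0.0609). Myh11, the smooth muscle myosin heavy chain, lay at 91.8 to 1063 and 1227 to 2552 CPM (edgeR 1.30, SE 0.46, adjusted p = 0.142). Its lowest wild type value came from the red-cell-rich F-set replicate 1, which was also lowest for Acta2, Tagln, Cnn1 and Myl9. Cnn1, the actin-binding protein calponin, is among the members that overlapped, with a knockout minimum of 281 CPM below the wild type maximum of 305 CPM.

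**Figure D2:**
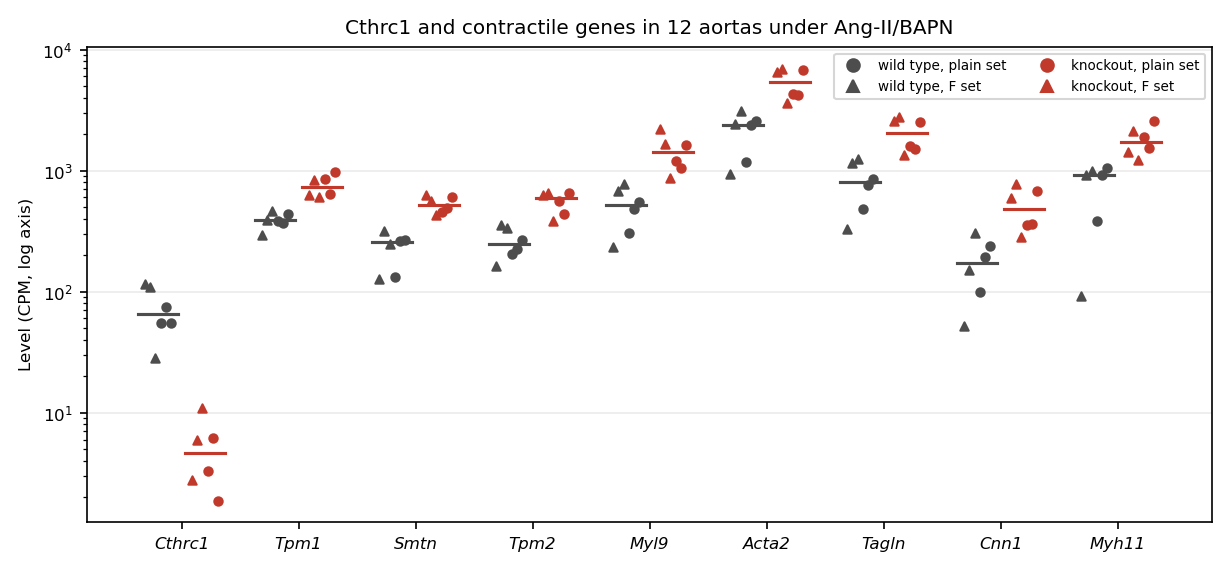
Levels in CPM (log axis) of Cthrc1 and of 8 contractile genes in each library under Ang-II/BAPN; circles are the plain set, triangles the F set, and bars are medians of 6 libraries. Cthrc1 is lower in every knockout library, and the contractile genes other than Cnn1 are higher in every knockout library than in any wild type library.

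Contractile genes share a well-known control element, the CArG box, which serum response factor binds. The promoters of the called genes Myl9 and Fbxl22 are shown because they hold one, and that of Tpm1 because it is the called contractile gene with the smallest adjusted p. Each sequence is the 250 bases before the RefSeq start (GRCm38.p6), 5′ to 3′ on the gene's strand, with the CArG box in capitals.
Myl9 (chr2:156775214-156775463, plus strand): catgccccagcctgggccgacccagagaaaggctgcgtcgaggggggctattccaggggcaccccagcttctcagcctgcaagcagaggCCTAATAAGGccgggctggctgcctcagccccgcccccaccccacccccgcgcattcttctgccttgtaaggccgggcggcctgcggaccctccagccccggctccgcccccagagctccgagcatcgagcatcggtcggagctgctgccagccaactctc
Fbxl22 (chr9:66514594-66514843, minus strand): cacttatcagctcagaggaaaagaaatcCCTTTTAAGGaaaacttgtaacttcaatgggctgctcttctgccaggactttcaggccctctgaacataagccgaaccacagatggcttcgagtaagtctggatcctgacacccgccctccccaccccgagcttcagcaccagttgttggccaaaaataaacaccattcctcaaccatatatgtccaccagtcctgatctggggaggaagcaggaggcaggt
Tpm1 (chr9:67049214-67049463, minus strand): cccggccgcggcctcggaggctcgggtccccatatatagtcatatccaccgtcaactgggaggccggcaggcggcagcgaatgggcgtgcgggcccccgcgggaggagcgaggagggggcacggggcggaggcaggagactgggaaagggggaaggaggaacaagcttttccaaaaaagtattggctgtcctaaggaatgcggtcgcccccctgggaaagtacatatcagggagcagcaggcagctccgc
The box begins 161 bases before the start in Myl9 and 222 bases before it in Fbxl22, and these letters are not in the Tpm1 window. The searched pattern, though not each single box, is its own reverse complement and so covers both strands, and 1.47% of the 32851 promoter windows in the table hold it. Counted by gene, as in the counts that follow, 439 of 27025 genes (1.62%) hold it in at least 1 window. Of the 100 called genes higher in knockout that matched a promoter, 6 hold a box (Cbr2, Ccdc9, Eml1, Fbxl22, Myl6 and Myl9), and of the 54 lower ones 3 do. Of the 14 contractile genes that matched, Myl9 and Ldb3 do. A match is a description of letters and not a binding site.

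Some other called genes that were higher in knockout aorta are described next, chosen after their values were seen. Fbxl22, an F-box protein of the muscle sarcomere, had a lowest, median and highest level of 1.31, 5.66 and 10.4 CPM in wild type and of 14.9, 25.9 and 32.4 CPM in knockout aorta (edgeR log2 fold change 2.17, SE 0.44, adjusted p = 0.0463). Speg, a muscle kinase, ran from 17.6 over 52.2 to 70.3 CPM and from 97.7 over 155 to 287 CPM (edgeR 1.81, SE 0.33, adjusted p = 0.0412). Dmpk, the kinase mutated in myotonic dystrophy, ran from 62.1 over 154 to 204 CPM and from 278 over 378 to 774 CPM (edgeR 1.68, SE 0.32, adjusted p = 0.0453). The genotypes did not overlap for any of the 3. Heyl, a transcription factor that Notch induces in mural cells, differed by 1.84 (SE 0.34) and Cavin1, a coat protein of caveolae, by 0.90 (SE 0.15). Myl6, the essential light chain of non-muscle and smooth muscle myosin, differed by 1.42 (SE 0.28) and overlapped by a narrow margin, 774 CPM in the lowest knockout against 786 CPM in the highest wild type library.

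Genes of the elastic fibre were higher in sum, with 0 of 16 called. By unadjusted p under 0.05 edgeR found 8 higher and DESeq2 called 7 higher. The median log2 fold change was 0.64, and 0.43 without F-set knockout replicate 1 and F-set wild type replicate 1. The summed level ran from 3660 to 10800 CPM in wild type and from 15300 to 25100 CPM in knockout libraries. Its most abundant member was Eln, the elastin gene, with a lowest, median and highest level of 1212, 5900 and 6997 CPM in wild type and of 10560, 12280 and 16750 CPM in knockout aorta (edgeR log2 fold change 1.36, SE 0.37, adjusted p = 0.0791). Mfap4, a microfibril-associated protein, differed by 1.76 (SE 0.50, edgeR adjusted p = 0.0842). Fbn1, the fibrillin of the microfibril core, differed by 0.30 (SE 0.28, edgeR adjusted p = 0.543), with overlapping libraries.

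Collagens did not pass the test. Of 18 genes edgeR called 0, with 8 at an unadjusted p under 0.05, all higher, and DESeq2 called 4 higher; the median was 0.43. Col1a1, which encodes the α1 chain of collagen I, lay at 6660 to 11800 CPM in wild type and 7100 to 16600 CPM in knockout aorta (edgeR log2 fold change 0.44, SE 0.26, adjusted p = 0.33). Col3a1, the collagen III chain, differed by 0.31 (SE 0.23, edgeR adjusted p = 0.44). Lox, one of the lysyl oxidases that β-aminopropionitrile inhibits, differed by -0.07 (SE 0.25, edgeR adjusted p = 0.886). Loxl1, another lysyl oxidase gene, differed by 1.34 (SE 0.35, edgeR adjusted p = 0.0714). Of 15 collagen cross-linking and folding genes 0 were called, with a median of 0.26. Of these, 5 had an unadjusted p under 0.05, all higher, and DESeq2 called 2 higher. Of 19 matrix proteases 0 were called, with 7 at an unadjusted p under 0.05 (4 higher and 3 lower), 2 called higher by DESeq2 and a median of 0.16. Over all genes the shares were 21.8% at that unadjusted p and 5.17% called higher by DESeq2.

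Fibroblast, matricellular and Wnt lists held 4 called genes, all higher in knockout aorta and all without overlap between genotypes. Dpt, the collagen-binding dermatopontin of adventitial fibroblasts, had a lowest, median and highest level of 106, 164 and 248 CPM in wild type and of 351, 478 and 1598 CPM in knockout aorta (edgeR log2 fold change 1.92, SE 0.39, adjusted p = 0.0474). It was the only called gene of 13 fibroblast markers, whose median was 0.62, or 0.42 without F-set knockout replicate 1 and F-set wild type replicate 1. Ccn5, a matricellular protein that restrains smooth muscle growth, ran from 73.2 over 157 to 209 CPM and from 332 over 430 to 837 CPM (edgeR 1.63, SE 0.32, adjusted p = 0.0458), the only call among 25 matricellular genes with a median of 0.26. The highest value of both came from F-set knockout replicate 1.

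Secreted and intracellular restraints of Wnt signalling were among the calls. Sfrp2, which binds Wnt proteins outside the cell, ran from 77.9 over 106 to 182 CPM in wild type and from 232 over 369 to 1186 CPM in knockout aorta (edgeR log2 fold change 2.10, SE 0.42, adjusted p = 0.0463). Nkd1, a feedback inhibitor that binds Dishevelled, ran from 7.66 over 16.3 to 20.4 CPM and from 21.5 over 40 to 47 CPM (edgeR 1.26, SE 0.24, adjusted p = 0.0452). Fzd2, a Wnt receptor named after its values were seen, differed by 1.09 (SE 0.21, edgeR adjusted p = 0.0452). The 15 tested genes of the canonical Wnt list had a median of 0.05, with 5 higher and 3 lower at an unadjusted p under 0.05. The feedback target Axin2 differed by 0.05 (edgeR adjusted p = 0.91). Of 23 noncanonical Wnt and planar polarity genes 0 were called, with 4 higher and 3 lower at an unadjusted p under 0.05, 3 called higher by DESeq2 and a median of 0.06. The TGF-beta pathway list likewise had 0 of 17 called, with 5 at an unadjusted p under 0.05, 5 called by DESeq2 (4 higher and 1 lower) and a median of 0.10. The TGF-beta ligand gene Tgfb3 narrowly missed the threshold at 1.185 (SE 0.25, edgeR adjusted p = 0.0501).

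**Figure D3:**
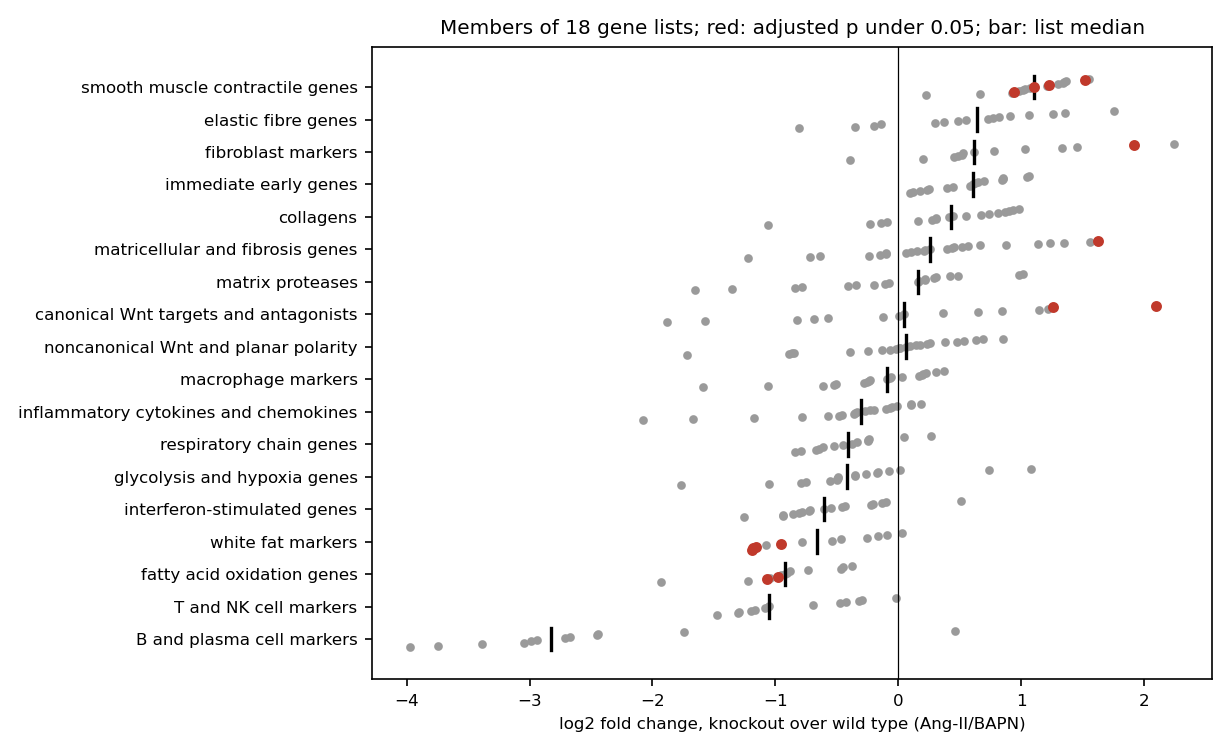
Log2 fold change of knockout over wild type under Ang-II/BAPN for the tested members of 18 gene lists; each dot is a gene, red dots passed the test, and black bars are list medians. The contractile list has its median at 1.10 and the fatty acid oxidation list at -0.92.

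The called genes of the fat storage and fatty acid oxidation lists were all lower in knockout aorta. Of 12 white fat markers 4 were called, all lower, 11 were negative, and the median was -0.66. Of 13 fatty acid oxidation genes 2 were called, both lower, 11 had an unadjusted p under 0.05, all 13 were negative, and the median was -0.92. Summed white fat markers overlapped, at 5120 to 7460 CPM in wild type and 2540 to 5300 CPM in knockout libraries, as did the oxidation genes at 1080 to 2400 and 700 to 1260 CPM. Brown fat markers had 0 of 10 called, 2 higher and 3 lower at an unadjusted p under 0.05, 1 higher by DESeq2, and a median of -0.25. In the 4 F-set libraries with intestinal markers up to 10 CPM, which include F-set wild type replicate 1, the medians were -1.21 for white fat and -1.10 for oxidation.

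Lpl, the lipase that frees fatty acids from lipoproteins at the vessel wall, had a lowest, median and highest level of 398, 837 and 957 CPM in wild type and of 223, 309 and 473 CPM in knockout aorta (edgeR log2 fold change -1.16, SE 0.19, adjusted p = 0.0365). Its libraries overlapped between 398 and 473 CPM. Lipe, hormone-sensitive lipase, ran from 232 over 287 to 345 CPM and from 105 over 146 to 194 CPM (edgeR -0.95, SE 0.18, adjusted p = 0.0412), without overlap. Pparg, the master regulator of fat cells, and Cidec, a lipid droplet protein, both differed by -1.19 (SE 0.24 and 0.25, edgeR adjusted p = 0.0489 and 0.0482), with overlapping libraries. Adipoq, the fat cell hormone adiponectin, missed the threshold at -0.78 (SE 0.19, edgeR adjusted p = 0.0622), and leptin (Lep) differed by -0.16 (edgeR adjusted p = 0.91).

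On the oxidation side, Acadl, the long-chain acyl-CoA dehydrogenase of mitochondria, ran from 174 over 263 to 334 CPM in wild type and from 87.1 over 115 to 170 CPM in knockout aorta (edgeR log2 fold change -1.06, SE 0.20, adjusted p = 0.0421). Etfdh, which passes the electrons of fatty acid oxidation to the respiratory chain, ran from 67.8 over 94.7 to 146 CPM and from 39.6 over 48.6 to 60.1 CPM (edgeR -0.98, SE 0.19, adjusted p = 0.0458). Neither gene overlapped between genotypes. Acsl1, which activates long-chain fatty acids and was named after its values were seen, ran from 280 over 476 to 681 CPM and from 106 over 183 to 290 CPM (edgeR -1.38, SE 0.20, adjusted p = 0.0296), with a narrow overlap. Nuclear-encoded respiratory chain genes had 0 of 14 called, with 6 lower at an unadjusted p under 0.05, 4 called lower by DESeq2, and a median of -0.41.

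**Figure D4:**
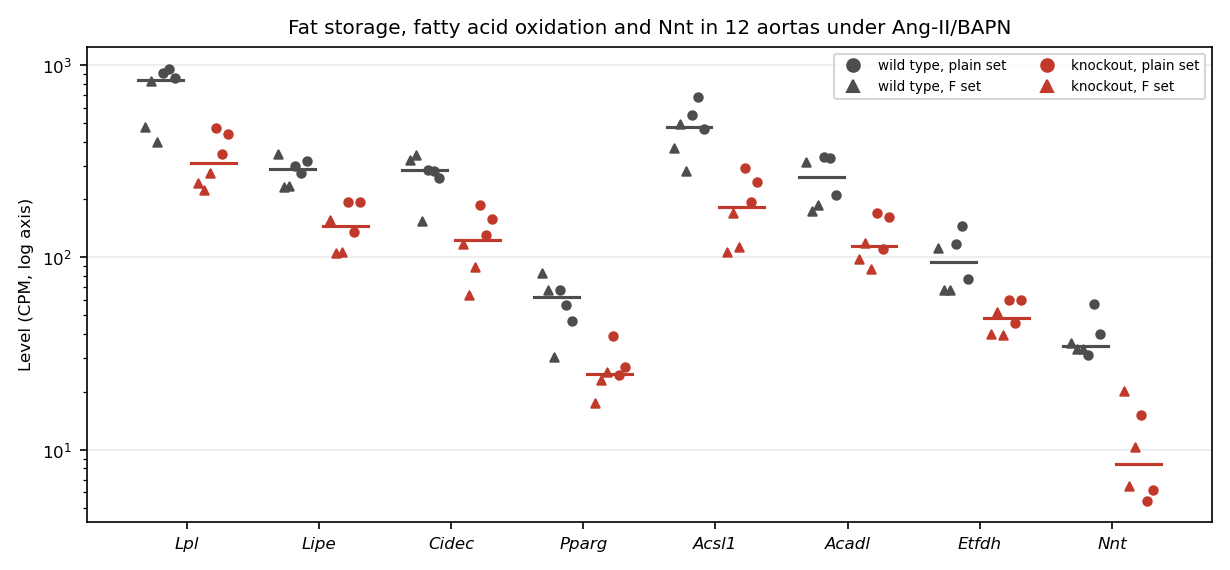
Levels in CPM (log axis) of 4 fat storage genes, 3 fatty acid genes and Nnt in each library under Ang-II/BAPN; circles are the plain set, triangles the F set, and bars are medians of 6 libraries. Nnt lies at 5.43 to 20.2 CPM in knockout libraries, against 31.1 to 57.2 CPM in wild type.

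Nnt was the only called gene of the 19 antioxidant and NADPH oxidase genes. It encodes the mitochondrial transhydrogenase that makes NADPH, and C57BL/6J mice, unlike C57BL/6N, are known to carry a deletion in it. Under Ang-II/BAPN it lay at 31.1 to 57.2 CPM in wild type and 5.43 to 20.2 CPM in knockout aorta (edgeR log2 fold change -1.86, SE 0.34, adjusted p = 0.0412). Under PBS the difference was of the same size (-1.89), with 48.5 ± 21.5 CPM in the wild type and 12.8 ± 5.55 CPM in the knockout (SD, n = 6 each). A difference of strain background between the genotypes was not tested.

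Other called genes lay in several processes and were named after their values were seen, apart from Dnajb9. Ralgps2, a Ral exchange factor, had a lowest, median and highest level of 12.2, 15.4 and 30.1 CPM in wild type and of 3.2, 5.78 and 7.86 CPM in knockout aorta (edgeR log2 fold change -1.67, SE 0.24, adjusted p = 0.0288), without overlap. Vtn, the adhesive plasma and matrix protein vitronectin, which liver also makes, ran from 9.47 over 14.5 to 18.5 CPM and from 2.26 over 5.8 to 7.2 CPM (edgeR -1.39, SE 0.22, adjusted p = 0.0365). Dnajb9, a chaperone of the endoplasmic reticulum, was the only call of 14 endoplasmic reticulum stress genes (edgeR -0.88, SE 0.15, adjusted p = 0.0383), whose median was 0.16. Tnfrsf12a, the TWEAK receptor, differed by 1.45 (SE 0.26), Nupr1, a stress-induced chromatin protein, by 1.57 (SE 0.27), and the mesenchymal transcription factors Twist2 and Foxc2 by 1.57 (SE 0.27) and 1.01 (SE 0.16), each higher in knockout aorta.

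The immune cell and inflammation lists held no called gene. Outside them, immune-related calls went in both directions, and those given here were named after their values were seen. The chemokine gene Cx3cl1 was called higher, with a log2 fold change of 1.09 (SE 0.23, edgeR adjusted p = 0.0485). Naip1, an inflammasome gene, was called lower at -2.575 (SE 0.51, edgeR adjusted p = 0.0463). The immunoglobulin light chain segments Igkv4-53 and Igkv6-23 were also called lower, at -6.35 and -4.15 (edgeR adjusted p = 0.0412 and 0.0458). These 2 segments reached no more than 1.66 and 3.22 CPM in any library. Macrophage markers had 0 of 19 called and 0 at an unadjusted p under 0.05, with 0 called by DESeq2 and a median of -0.09. Inflammatory cytokines and chemokines had 0 of 20 called, 1 lower at an unadjusted p under 0.05, 1 lower by DESeq2 and a median of -0.30. Interferon-stimulated genes had 0 of 17 called, 5 lower at an unadjusted p under 0.05, 2 lower by DESeq2 and a median of -0.60. B and plasma cell markers had the most negative median of the blood cell lists, -2.82, with 0 of 12 called by edgeR, 11 lower at an unadjusted p under 0.05 and 9 called lower by DESeq2. Their summed level was 39.2 to 631 CPM in wild type and 32.8 to 110 CPM in knockout libraries, and wild type F-set replicates 2 and 3 lay within the knockout range. Without F-set knockout replicate 1 and F-set wild type replicate 1 the median was -1.97. The 3 wild type libraries above 200 CPM were F-set replicate 1 and plain-set replicates 1 and 3, of which the last 2 also held intestinal markers. Plain-set wild type replicate 2, with the highest intestinal sum, held B and plasma cell markers of 111 CPM. The part of organ tissue in this difference was not tested.

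The largest fold changes were those of genes of other organs. Among called genes with a named symbol, at least 2 CPM and 1 sign in both title sets, all 12 of the largest rises were pancreatic digestive enzymes and their relatives. Reg1, a secreted pancreatic protein with a log2 fold change of 13.83, had no count in wild type and averaged 26.5 CPM in knockout. It is outside that rule only through the requirement of 1 sign in both title sets. Ctrb1, the enzyme precursor chymotrypsinogen, lay at 486, 608 and 63 CPM in the plain-set knockout libraries, at most 0.158 CPM in the F-set knockout libraries and at most 0.117 CPM in wild type. Pnliprp1, a pancreatic lipase relative, had no count in any wild type library. Pooled over the knockout libraries it was at least 8820-fold higher, with the floor set at 3 counts pooled over the wild type group. Without plain-set knockout replicate 2, which held the most counts, the bound was 5110-fold. Single knockout libraries held 4 to 12197 counts of it, and pancreatic enzymes summed to at most 17.1 CPM in the F-set ones, so neither bound describes each knockout library. Among the 12 largest falls, Car1, Cyp2c55 and Lypd8, which are intestinal, lay at 34.4 to 93.1, 14.8 to 25.3 and 34.1 to 56.3 CPM in plain-set wild type libraries and at up to 0.165 CPM in any knockout library. In F-set wild type replicates 1 and 3 the 3 genes were also scarce, at up to 1.53 CPM. Serpina3k, Hpx, Hc and Orm2, known as plasma proteins from liver, were also among the 12 falls, and Serpina3k lay at 2.99 to 33.1 CPM in wild type and 0.566 to 2.01 CPM in knockout aorta.

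The title sets were also compared with each other. In the plain set alone 18 genes were called (0.0803%), 17 higher and 1 lower in knockout. In the F set alone 0 were called (0%), with 3291 at an unadjusted p under 0.05 and 903 called by DESeq2. For a difference of the genotype effect between sets, 0 genes were called (0%), with 427 at an unadjusted p under 0.05 and 31 called by DESeq2. Of the 207 called genes, 203 had the same sign in both sets, which follows in part from a call made over both sets together. For Tpm1 the log2 fold change was 1.04 for plain-set and 0.85 for F-set libraries, for Smtn 1.23 in both, and for Lpl -1.12 and -1.20.

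Under PBS, edgeR called 0 genes between genotypes (0%), with 954 of 24623 at an unadjusted p under 0.05. The 119 genes that were higher under Ang-II/BAPN outside the organ lists had a median log2 fold change of 0.13 under PBS, and the 71 lower ones of -0.16. Both groups were picked for a small p in the treated libraries and still include organ genes. Values nearer 0 under PBS therefore follow in part from that choice. The contractile list had a PBS median of -0.02, and Tpm1 averaged 1248 ± 180 CPM in the wild type and 1331 ± 274 CPM in the knockout (SD, n = 6 each). The white fat and fatty acid oxidation lists had PBS medians of -0.53 and -0.45, in the direction seen under Ang-II/BAPN. Pancreatic enzymes were positive under PBS for 18 of 18 genes, also in the same direction. Intestinal markers had a PBS median of 1.86 with 14 of 14 positive, opposite to the -7.12 under Ang-II/BAPN. Of all genes tested under PBS, 55.1% were positive. The genotype by treatment interaction was called for 0 genes by edgeR (0%), with 3132 at an unadjusted p under 0.05, a lowest adjusted p of 0.111 and 599 called by DESeq2. The treated libraries enter both this interaction and the comparison above, so the 2 are not independent. For Smtn the unadjusted interaction p was 0.00011 (edgeR adjusted p = 0.111), and for Lpl it was 0.366.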

How the data were processed

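Total RNA of mouse aorta was sequenced as stranded paired-end libraries, per the labels' protocols. The authors deposited, for 40141 genes, read counts as whole numbers beside FPKM. The tools HISAT2, StringTie and DESeq2 and the build GRCm38 are named per the submitters' processing notes. Their versions, roles and strand setting are not stated, so antisense partners and near-identical paralogs such as the amylase and trypsin genes cannot be told apart with certainty. Another 4 columns, from 2 libraries without labels here, were not used. Library totals ran from 45186407 to 79277927 counts, replicates correlated at 0.904 to 0.97, and no pair agreed within sampling noise (chi-square per degree of freedom at least 110). The common biological coefficient of variation was 55.7%.

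For the main comparison edgeR 4.0.16 (R 4.3.3) was run on the counts of 12 libraries, with filterByExpr (minimum count 10, minimum total 15; 17719 genes left out), TMM factors, a robust quasi-likelihood fit and the model of title set plus genotype. Standard errors derive from the F statistic. Within-set contrasts used 4 group means, and PBS and interaction contrasts all 24 libraries with 8 group means. Alternatives were RLE factors, DESeq2 1.42.0, limma 3.58.1 on log2(FPKM + 1) of the deposited FPKM, other filters and models, covariates and leaving out libraries. Named genes are Cthrc1 and its neighbours, the 12 largest rises and falls among calls with 1 sign in both sets and at least 2 CPM, and up to 4 called members per list, or, with fewer than 2 calls, the 2 lowest in adjusted p; genes outside this rule are marked as such, and not every gene it yields is described. The result of 1 gene is not reported here. The members and the 43 gene lists were chosen with earlier results of these data known. The pancreatic list was added after seeing the data, as were the lipid and focal adhesion lists, which are not reported here. On simulated counts for 21743 genes in this comparison, log2 changes of 1 were recovered for 22% of genes and of 2 for 80%, with 1 false call. The simulated counts were drawn independently for each gene and library, with changed genes all above 1 CPM. They hold none of the organ and blood differences that genes share across these libraries, so the 1 false call gives no error rate for the real data. Floors of 3 counts cover counting error only. Promoter sequences are RefSeq's (GRCm38.p6).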

Additional observations from a re-analysis of the deposited data

Results flagged for a closer look

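Over 37 genes and 46 list sums, each examined in both genotypes, 28 of 166 groups of 6 held a library far from the other 5. Far means a high Dixon ratio, the gap to the nearest library over the range of the 6, taken on CPM. Chance gives about 1 in 20 for independent, normally distributed values. CPM need not be so distributed and the items share libraries, so the chance rate here is not known. More of the 28 came from F-set knockout replicate 1 than from any other library. It was high for Myl6 (2590 CPM, next 1290), Ccn5 (837, next 442), Dpt (1600, next 628), Sfrp2 (1190, next 522), Fzd2 (137, next 72.1), Nupr1 (1020, next 558) and Twist2 (28.3, next 12.7). It was also high for the sums of elastic fibre genes (25100 CPM), renin-angiotensin and endothelin genes (1480), chondrocyte and bone genes (4240), mitochondrially encoded genes (276000) and brown fat markers (833). It was low for Dnajb9 (24.8 CPM) and for the sum of Cthrc1 and its neighbours (52.3 CPM).

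F-set wild type replicate 1 was high for the sums of matrix proteases (6620 CPM), cell cycle genes (966), macrophage markers (6410) and red cell markers (49800). F-set knockout replicate 2 was high for red cell markers (23600 CPM) and for glycolysis and hypoxia genes (3430). F-set wild type replicate 3 was low for Dnajb9 (47.7 CPM) and high for Tnfrsf12a (68.6) and Nupr1 (227). Among plain-set libraries, wild type replicate 1 was high for skeletal muscle markers (696 CPM) and Ralgps2 (30.1). Wild type replicate 2 was high for kidney tubule markers (4780 CPM) and Nnt (57.2), and knockout replicate 1 for kidney tubule markers (981 CPM). Which of these differences arose in the tissue and which in handling was not tested.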

How the results depend on the processing

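The 207 calls became 2435 with DESeq2, 1510 with all 24 libraries, 391 with the intestinal marker sum as a covariate, 126 with limma on log2(FPKM + 1), 13 with glmTreat at a fold change of 1.5, 13 with Rn7sk as a covariate, 2 with the replicate block, 1 without a title set term and 0 in the 4 F-set libraries with intestinal markers up to 10 CPM. Of alternatives chosen after seeing the data, 4 group means gave 0, the pancreatic sum 0, the liver sum 1, and leaving out F-set knockout and wild type replicate 1 together 458. Leaving out single libraries gave 0 to 368. The replicate block groups libraries by number, and no same-numbered pair pattern was seen (correlations -0.373 to 0.147). With 3 libraries per group, these correlations cannot tell whether same-numbered libraries were handled together. For Cthrc1 the log2 fold change lost its call with the replicate block (-3.97), the intestine-poor subset (-3.10), 4 group means (-3.86), the pancreatic sum (-3.92) and the liver sum (-3.36), and ran from -4.13 to -3.70 on leaving out libraries. The 18 plain-set calls became 304 with DESeq2, 0 with no filter, 0 with at least 1 CPM in 6 libraries and 0 to 25 on leaving out libraries. The 0 F-set calls became 903 with DESeq2, the 0 set differences 31 (0 to 1 on leaving out libraries) and the 0 interactions 599 (0 to 87). No subset without kidney transcripts could be made, since all 12 libraries exceeded 10 CPM.

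Signs turned for several genes that were not called and for list medians. In the intestine-poor subset they included Myh6 (-0.68), Agt (0.16), Atf4 (-0.00018), Slc25a32 (0.29) and the intestinal median (0.19). With the liver sum they included Agt (0.85), Atf4 (-0.0057), Slc25a32 (0.43) and Myh7 (-2.11). With Rn7sk they included Dcstamp (0.23) and the medians of cytokines (0.028) and mitochondrially encoded genes (-0.042), and with the pancreatic sum the cytokine median (0.068). Without both F-set replicates 1 they included Aurka (0.011), Dcstamp (0.74) and the medians of cytokines (0.15), cell cycle (0.24), mitochondrially encoded (-0.028) and red cell genes (0.68). Dcstamp also turned with the replicate block (0.68), and the Schwann cell median without a title set term (0.032). On leaving out 1 library, Dcstamp ran from -0.36 to 0.58, Umod from -3.37 to 0.16 and Baalc from -0.26 to 0.14. The medians ran from -0.47 to 0.13 for cell cycle, -0.048 to 0.42 for mitochondrially encoded, -0.65 to 0.32 for Schwann cell, -1.80 to 0.82 for kidney tubule and -1.71 to 0.57 for red cell genes. Medians nearer 0 turned too: endoplasmic reticulum stress (-0.57 with the liver sum, -0.13 in the subset), canonical Wnt in 4 alternatives (down to -0.081), TGF-beta in 3, macrophage in 2 (up to 0.14), brown fat, antigen presentation and coagulation in 2, matrix protease and noncanonical Wnt in 1, renin-angiotensin in 8, and clock, chondrocyte and skeletal muscle lists in 10. The causes were not tested.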

Other observations

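Immediate early genes, which cells switch on within minutes of a stimulus, were higher in sum in knockout aorta under Ang-II/BAPN, at 637 to 1010 CPM in wild type and 1020 to 1460 CPM in knockout libraries. All 17 had a positive log2 fold change, against 45.7% of all tested genes, with a median of 0.61. Of them 0 were called by edgeR, with 9 at an unadjusted p under 0.05 and 5 called by DESeq2. Egr1, a zinc finger factor of this class, lay at 57.5 to 148 CPM in wild type and 131 to 240 CPM in knockout aorta (edgeR adjusted p = 0.0845). Mast cell markers had a lower sum without overlap, at 45.7 to 58.2 CPM in wild type and 23.9 to 37.7 CPM in knockout libraries. Of these 10 genes 0 were called by edgeR, with 3 at an unadjusted p under 0.05, and DESeq2 called 1 lower. Of the genes of glycogen handling, 3 called ones are given here, chosen after their values were seen, and each was lower in knockout aorta without overlap. Gys1, glycogen synthase, lay at 49.2 to 75 and 29.4 to 40.7 CPM (log2 fold change -0.77, edgeR adjusted p = 0.0328), Gyg, the glycogen primer glycogenin, at 62.8 to 91.5 and 38 to 54.9 CPM, and Pgm1, phosphoglucomutase, at 58.8 to 99 and 36.4 to 55.6 CPM. Pygm, muscle glycogen phosphorylase, and Phkg1, a phosphorylase kinase subunit, had log2 fold changes of 1.45 and 0.96 and were not called (edgeR adjusted p = 0.0677 and 0.0666). Pygl, liver glycogen phosphorylase, and Gbe1, the glycogen branching enzyme, were lower at -0.85 and -0.94 and were not called either (edgeR adjusted p = 0.0676 and 0.0529).

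Genes of olfactory and vomeronasal receptors, which aorta is not known to use, had counts for 123 to 209 genes in knockout and 50 to 118 genes in wild type libraries under Ang-II/BAPN. Under PBS the ranges were 129 to 225 and 54 to 359. Their summed level overlapped under Ang-II/BAPN, at 97.4 to 290 CPM in knockout and 58.2 to 167 CPM in wild type libraries. The receptor gene Vmn2r113 had no count in any wild type library under Ang-II/BAPN and 13 to 43 counts in each knockout library, at least 53.2-fold higher with a floor of 3 counts pooled over the group.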
